A study of Mus musculus with 6 samples.

Results

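Spiral ganglion neurons are the primary afferent neurons of the cochlea, and 32 genes of these neurons were followed here in the organ of Corti of mice that lack pejvakin. The genes encode neuronal cytoskeleton, synaptic vesicle, RNA-binding and surface proteins and transcription factors, and were taken as a named list. All 32 were measured, by 35 of the 21789 probe sets that carry a single gene symbol, and 1 probe set per gene left 32 of 19938 genes. Total RNA came from organ of Corti dissected at postnatal day 15, and 6 arrays were made. The Pjvk-/- group had 3 arrays from mice of the genotype Pjvk-/-, and the Pjvk+/+ group had 3 arrays from wild-type mice. Both groups shared the C57BL/6J-129/Sv strain background. The labels do not say how many animals or ears a sample held or whether samples came from separate animals, so p-values reflect only how these samples vary, and that variation may be technical. The comparison asks whether transcripts of the auditory neurons differ when pejvakin, a gasdermin-family protein whose loss causes deafness, is missing.

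The cell bodies of these neurons lie in the bony core of the cochlea, and their peripheral fibres reach the hair cells through the floor of the organ of Corti. Type I neurons contact inner hair cells and carry the sound signal to the brainstem with glutamate, while the sparse, unmyelinated type II neurons contact outer hair cells and contain peripherin. Neurofilaments set axon calibre, and synaptotagmins with SNARE proteins drive vesicle fusion at the central terminals. Several listed genes are not exclusive to the neurons: Calb2 is also made by hair cells, Gata3 by hair and supporting cells and Epha4 by otic mesenchyme. How much of the ganglion the dissection kept is not given in the sources used here.

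Signal is given on the log2 scale of the deposited values throughout, and a difference is Pjvk-/- minus Pjvk+/+ on that scale. The arrays were closely alike, with medians from 6.66 to 6.69. Pjvk itself read 4.42, 4.36 and 4.21 in the Pjvk-/- arrays, against 4.75, 5.06 and 4.96 in the Pjvk+/+ arrays, with no overlap and a difference of -0.59 (limma adjusted p = 0.105). This signal was dim, and where its probes lie relative to the mutation is not given in the sources used here, which limits it as a check on genotype. The mean of 3 measured Y-linked genes (Eif2s3y, Kdm5d and Uty) was 7.58, 7.51 and 7.39 in the Pjvk-/- arrays and 8.05, 7.86 and 7.65 in the Pjvk+/+ arrays, so it was lower in every Pjvk-/- array. The part of this Y-linked difference in the results below was examined only as a covariate. The covariate does not overlap between the genotypes, so its part and that of genotype cannot be told apart well. Fits with it are also less precise. For the vesicle gene Sv2c, for instance, the standard error was 0.057 in the main fit and 0.097 with the covariate. Shifts under the covariate are therefore given as descriptions only. One array stood apart in a way that touches the list: in Pjvk-/- replicate 1, 20 genes exceeded the highest of the other 5 arrays by at least 0.5, against between 0 and 3 genes in each of the other arrays. Syt1 was among these 20, and results that rest on this array are given with and without it.

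The neuronal genes had strong signals in both genotypes. In mean signal, 30 of the 32 lay above the median of all genes and 23 above the 90th percentile. A probe set's signal depends on its probes, and the table gives no detection calls, so this places the list only roughly. The exceptions below the median were Prph, the peripherin of type II neurons, and Pou4f1, a POU-homeodomain factor of sensory neurons. The label of the list thus had its general neuronal cytoskeleton and vesicle genes strongly present, whereas the type II gene Prph was dim, at 6.21, 6.24 and 6.17 in the Pjvk-/- arrays and 5.99, 6.10 and 6.15 in the Pjvk+/+ arrays.

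None of the 32 genes passed the test between the genotypes. Differences ran from -0.28 for Slc17a6, the vesicular glutamate transporter VGLUT2, to 0.23 for Gap43, the growth-associated protein of axons. With Benjamini-Hochberg adjustment across the whole table, limma called 0 of 32 at an adjusted p under 0.05, where it called 0.0351% of all genes. A limma fit that let the prior variance follow intensity, with robust priors, also called 0 members, where 0.502% of all genes were called lower and 0.0602% higher. The smallest adjusted p was 0.277. At an unadjusted p under 0.05, 4 members were lower and 0 higher, where 6.66% of all genes were lower and 5.74% higher. In bulk tissue, fewer cells of a type and less RNA per cell cannot be told apart. The median difference over the members was -0.07, against -0.01 over all genes, with 23 members (71.9%) below 0 and 9 above, where 53.8% of all genes were below 0.

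The 95% interval of the difference lay within 1.2-fold either way for 17 of the 32 genes and within 1.5-fold for 31, with Syt1 the exception. For Nefh, the heavy neurofilament subunit, the interval ran from 0.929-fold to 1.096-fold, and for Tubb3, the neuronal beta-tubulin, from 0.914-fold to 1.084-fold. The Syt1 interval, from 0.67-fold to 1.77-fold, was the widest.

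**Figure D1:**
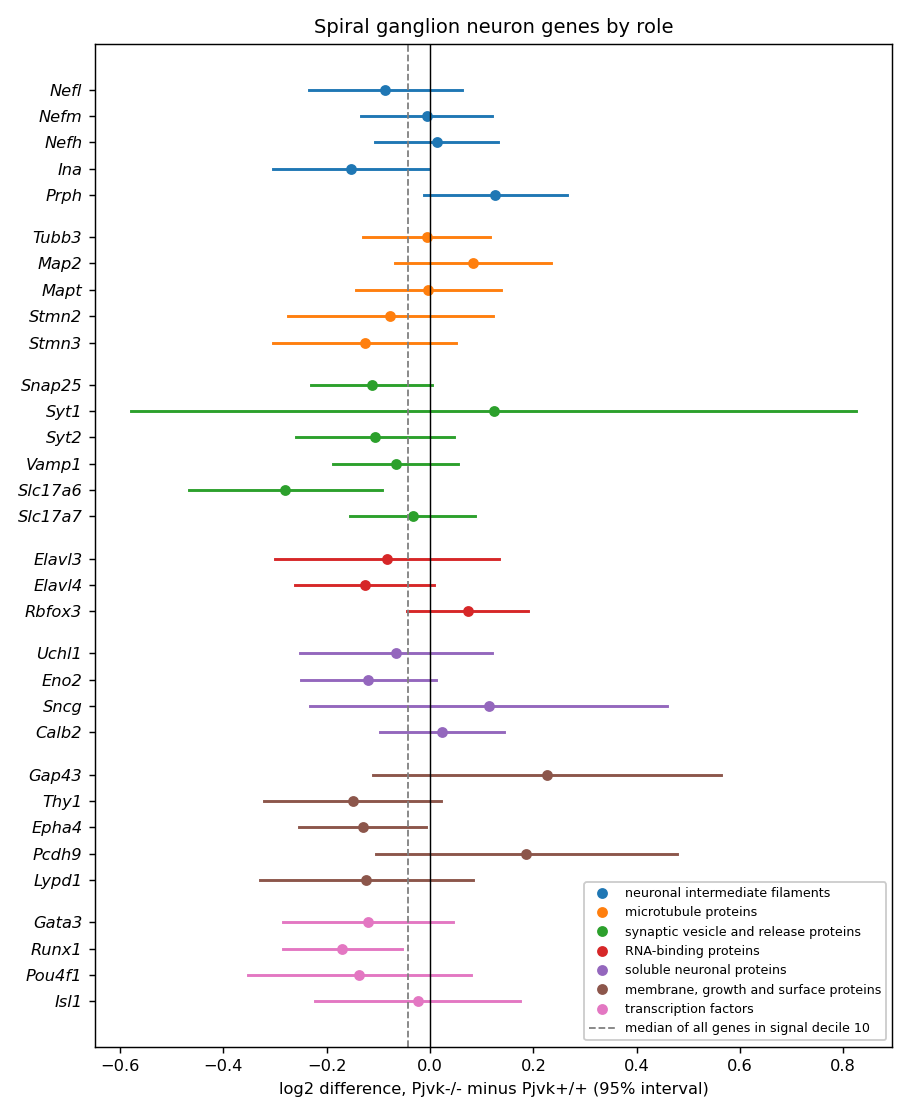
Log2 difference (Pjvk-/- minus Pjvk+/+) of the 32 genes, grouped by role, with 95% intervals from limma (3 arrays per genotype). Points run from -0.28 (Slc17a6) to 0.23 (Gap43), and the dashed line marks -0.04, the median of all genes in the brightest signal decile.

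Genotypes did not overlap in 11 of the 32 genes. In 9 of them, or 28.1%, every Pjvk-/- array lay below every Pjvk+/+ array, where 11.3% of all genes did so. In the other two, Prph and Rbfox3, every Pjvk-/- array lay above, where 6.59% of all genes did so. The 9 lower genes were Slc17a6, Runx1, Epha4, Ina, Snap25, Elavl4, Eno2, Thy1 and Vamp1. Bright genes in general lay lower in Pjvk-/-, and most members were bright. Among all 1996 genes of the brightest decile, 21.5% lay lower without overlap and 76.0% had a difference below 0. Among the 23 members in that decile, the shares were 30.4% (7 genes) and 78.3% (18 genes). None of these 23 members lay higher without overlap, where 2.15% of the decile did, and 2 of them were lower at an unadjusted p under 0.05, where 9.47% of the decile was. The median difference was -0.08 for those 23 members and -0.04 for all genes of the decile. Set against the median of all genes in its own decile, a member lay lower in 18 of 32 cases, with a median gap of -0.03. These shares are descriptions, and the gap between the members and genes of like signal was not tested.

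**Figure D2:**
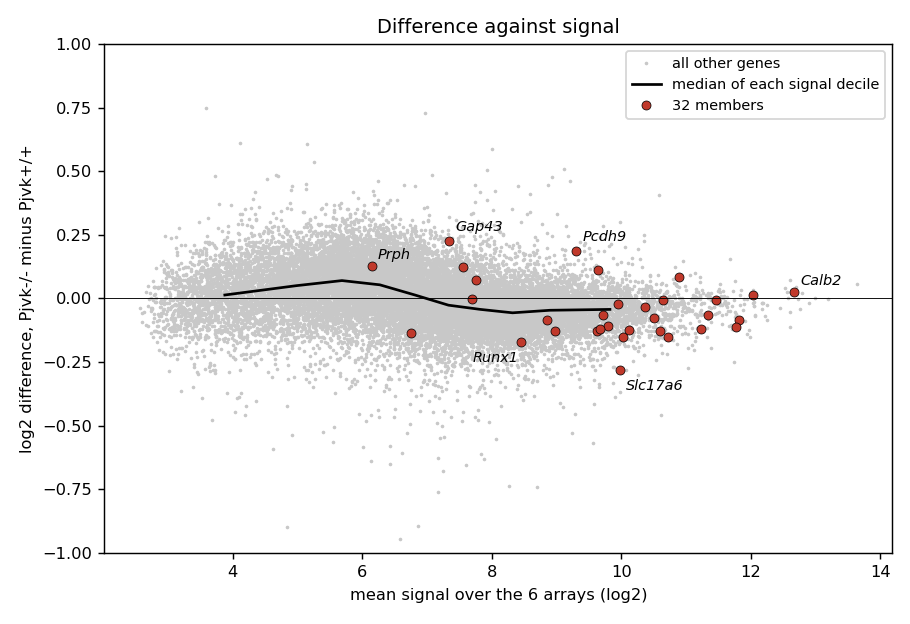
Log2 difference (Pjvk-/- minus Pjvk+/+) against mean signal over the 6 arrays for all genes (grey), with the 32 members in red and the median of each signal decile as a line. The members sit mostly at high signal, inside the band of other genes, and 4 genes that are not members lie beyond the vertical axis.

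Neuronal intermediate filaments form the axonal cytoskeleton, and the 3 neurofilament subunits were nearly alike in the genotypes. Nefh read 12.02, 12.03 and 12.06 in the Pjvk-/- arrays, against 12.01, 12.06 and, to the second decimal, 12 in the Pjvk+/+ arrays, so that the groups overlapped fully. The middle subunit Nefm differed by -0.01 (standard error, SE, 0.06) and the light subunit Nefl by -0.09 (SE 0.06). Ina, alpha-internexin, which co-assembles with the neurofilaments, was lower in all Pjvk-/- arrays. It had 10.73, 10.54 and 10.65 in the Pjvk-/- arrays, against 10.85, 10.78 and 10.75 in the Pjvk+/+ arrays, a difference of -0.15 (SE 0.07, limma adjusted p = 0.392). Its other probe set differed by -0.13 and its groups overlapped. Prph went the other way at 0.13 (SE 0.06, adjusted p = 0.426), without overlap. Taking the Y-linked level as a covariate left Ina at -0.06 and Prph at 0.03, and Prph was 0.08 without Pjvk+/+ replicate 1.

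Among the microtubule proteins, 4 of 5 genes had differences below 0, where 53.8% of all genes and 76.0% of the brightest decile did. All groups overlapped. Tubb3 differed by -0.01 and Mapt, which encodes tau, by 0.00 to the second decimal. Map2, the dendritic microtubule-associated protein, read 10.81, 10.99 and 10.99 in the Pjvk-/- arrays and 10.88, 10.85 and 10.81 in the Pjvk+/+ arrays. That difference of 0.08 (SE 0.07) came with 1 Pjvk-/- array at the level of the lowest Pjvk+/+ array, and was 0.14 without that array, Pjvk-/- replicate 1, and 0.05 without either of the other Pjvk-/- arrays. Stmn2 and Stmn3, stathmins that bind tubulin in growing axons, differed by -0.08 (SE 0.09) and -0.13 (SE 0.08). Stmn3 read 10.55, 10.58 and 10.47 in the Pjvk-/- arrays, against 10.59, 10.57 and 10.82 in the Pjvk+/+ arrays. Only Pjvk+/+ replicate 3 stood clear of the rest, and without it the Stmn3 difference was -0.05, whereas with the Y-linked covariate it was -0.27. A second, dim Stmn3 probe set differed by 0.04 (SE 0.14), in the other direction.

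The synaptic vesicle genes held the largest single difference among the members. Of these 6 genes, 3 were lower without overlap, where 11.3% of all genes and 21.5% of the brightest decile were. Slc17a6 loads glutamate into vesicles. It read 10.01, 9.72 and 9.78 in the Pjvk-/- arrays, against 10.19, 10.07 and 10.09 in the Pjvk+/+ arrays. All Pjvk-/- values were lower, with Pjvk-/- replicate 1 closest to the other genotype. The difference was -0.28 (SE 0.08), a 1.21-fold lower signal, with an unadjusted p of 0.00842 and an adjusted p of 0.277 in limma. By exact permutation of the arrays (two-sided) p was 0.1, and 3 arrays against 3 cannot give a smaller one. Over the alternative settings the difference lay between -0.37 (without Pjvk-/- replicate 1) and -0.14 (Y-linked level as a covariate), and no setting brought its adjusted p under 0.05. Slc17a7, which encodes the other vesicular glutamate transporter of these neurons, VGLUT1, differed by only -0.03 (SE 0.05).

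Snap25, a SNARE protein of the plasma membrane, was tightly grouped within each genotype. It read 11.71, 11.71 and 11.74 in the Pjvk-/- arrays and 11.86, 11.81 and 11.83 in the Pjvk+/+ arrays. The groups did not overlap, and the difference was -0.11 (SE 0.05, limma adjusted p = 0.411), between -0.13 and -0.09 over the alternatives. Vamp1, a SNARE protein of the vesicle, was lower by -0.07 (SE 0.05) without overlap. Syt2, the calcium sensor of fast release in auditory neurons, read 9.65, 9.75 and 9.83 in the Pjvk-/- arrays against 9.85, 9.78 and 9.92 in the Pjvk+/+ arrays. Its difference of -0.11 (SE 0.07) overlapped, and was -0.06 without Pjvk-/- replicate 1 and -0.22 with the Y-linked covariate. Syt1, the related calcium sensor of forebrain synapses, was unlike the rest of the list in its spread, as given below.

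**Figure D3:**
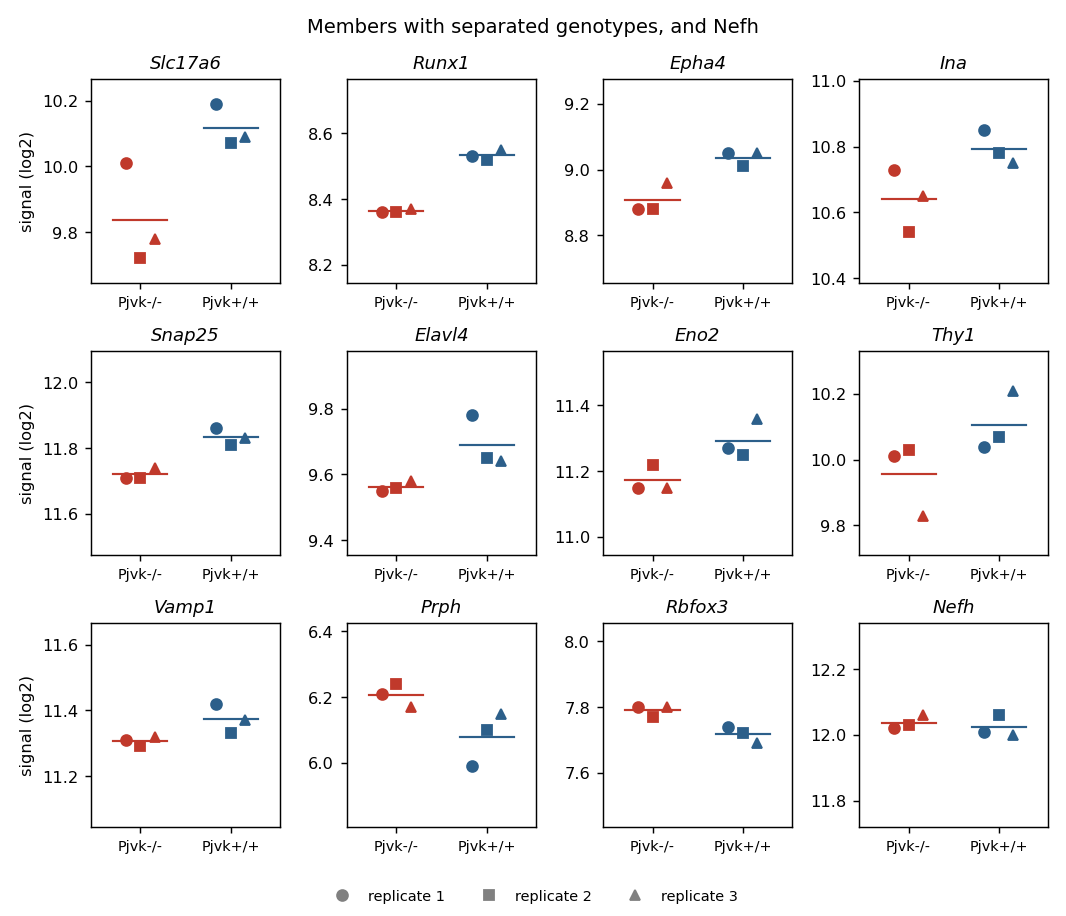
Log2 signal in each array (symbols mark replicate numbers, lines the group means) for the 9 members that were lower and the 2 that were higher without overlap in Pjvk-/-, and for Nefh. The Runx1 values of each genotype nearly coincide and lie apart from the other's, and the Nefh values of the genotypes overlap.

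All 4 transcription factors had differences below 0, where 53.8% of all genes and 76.0% of the brightest decile did. Runx1, a Runt-domain factor that takes part in setting type I neuron subtypes, had the most even values of the list. It read 8.36, 8.36 and 8.37 in the Pjvk-/- arrays, against 8.53, 8.52 and 8.55 in the Pjvk+/+ arrays. The gap between genotypes was larger than the spread in either. The difference was -0.17 (SE 0.05, unadjusted p = 0.00884, limma adjusted p = 0.28; exact permutation p = 0.1), and it stayed between -0.19 and -0.13 over the alternatives. Blood and immune cells use Runx1 too, and their part in its signal was not tested. Gata3, a zinc-finger factor needed for the neurons and for the sensory epithelium, read 9.52, 9.67 and 9.63 in the Pjvk-/- arrays against 9.85, 9.65 and 9.68 in the Pjvk+/+ arrays. Those groups overlapped, and the difference of -0.12 (SE 0.07) was -0.06 without Pjvk+/+ replicate 1 and ranged from -0.16 to -0.03 over the alternatives. Pou4f1 differed by -0.14 (SE 0.095). Isl1, a LIM-homeodomain factor of sensory neurons, read 9.88, 10.01 and 9.93 in the Pjvk-/- arrays and 10.04, 10.08 and 9.77 in the Pjvk+/+ arrays, and its difference of -0.02 changed sign with the setting.

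RNA-binding proteins of neurons gave mixed values. Elavl4, an RNA-stabilising HuD protein, read 9.55, 9.56 and 9.58 in the Pjvk-/- arrays, against 9.78, 9.65 and 9.64 in the Pjvk+/+ arrays. The groups did not overlap, yet the difference of -0.13 (SE 0.06, limma adjusted p = 0.416) was -0.08 without Pjvk+/+ replicate 1 or with cyclic loess and -0.04 with the Y-linked covariate. Elavl3, its close relative HuC, differed by -0.08 (SE 0.095) with overlap. Rbfox3, the nuclear splicing factor known as NeuN, read 7.80, 7.77 and 7.80 in the Pjvk-/- arrays and 7.74, 7.72 and 7.69 in the Pjvk+/+ arrays. It was higher in every Pjvk-/- array, by 0.07 (SE 0.05, adjusted p = 0.567).

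Soluble neuronal proteins were close in the genotypes. Eno2, the neuronal enolase of glycolysis, was the separated member, with 11.15, 11.22 and 11.15 in the Pjvk-/- arrays and 11.27, 11.25 and 11.36 in the Pjvk+/+ arrays. Its difference was -0.12 (SE 0.06, limma adjusted p = 0.424), and -0.18 with the Y-linked covariate. Calb2, the calcium buffer calretinin, marks one type I subtype and inner hair cells. It read 12.64, 12.70 and 12.68 in the Pjvk-/- arrays and 12.68, 12.63 and 12.64 in the Pjvk+/+ arrays, which overlap. Uchl1, a neuronal deubiquitinase, differed by -0.07 (SE 0.08).

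Among the membrane and surface proteins, Epha4 and Thy1 were lower without overlap. Epha4, an ephrin receptor of axon guidance, had 8.88, 8.88 and 8.96 in the Pjvk-/- arrays against 9.05, 9.01 and 9.05 in the Pjvk+/+ arrays, a difference of -0.13 (SE 0.05, limma adjusted p = 0.383). After quantile or cyclic loess normalization it was -0.08. Thy1, a surface glycoprotein of neurons, had 10.01, 10.03 and 9.83 in the Pjvk-/- arrays and 10.04, 10.07 and 10.21 in the Pjvk+/+ arrays. The gap between the nearest arrays of the genotypes was small beside the difference of -0.15 (SE 0.08, adjusted p = 0.442), which was -0.09 without Pjvk-/- replicate 3 and -0.10 without Pjvk+/+ replicate 3. Lypd1, a membrane-anchored modulator of nicotinic receptors that marks another type I subtype, read 9.85, 10.23 and 10.07 in the Pjvk-/- arrays and 10.19, 10.16 and 10.17 in the Pjvk+/+ arrays. Without Pjvk-/- replicate 1, the low array, the Lypd1 difference was -0.02 in place of -0.12, and without Pjvk-/- replicate 2, the high array, it was -0.21.

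Promoter sequences are shown for Slc17a6 and Runx1, the members with the smallest unadjusted p, and for Ina, whose window holds motifs that were searched. They were chosen after the values were seen. RefSeq promoter windows on GRCm38.p6 matched 23 of the 32 members by symbol, with 33 windows in all, some of them overlapping. Each line gives the 250 bases upstream of an annotated start, 5′ to 3′ on the gene's strand, in lower case, with matches to the searched motifs in capitals. The windows are the first of a pair listed for Slc17a6 at chr7:51621580-51621829 (plus strand), the distal and the proximal start of Runx1 at chr16:92826075-92826324 and chr16:92697330-92697579 (minus strand), and Ina at chr19:47014431-47014680 (plus strand).
Slc17a6: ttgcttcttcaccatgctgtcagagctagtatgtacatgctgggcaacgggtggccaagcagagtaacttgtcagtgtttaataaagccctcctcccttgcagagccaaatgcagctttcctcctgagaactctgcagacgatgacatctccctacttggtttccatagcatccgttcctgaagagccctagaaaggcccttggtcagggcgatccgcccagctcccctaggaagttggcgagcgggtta
Runx1 distal: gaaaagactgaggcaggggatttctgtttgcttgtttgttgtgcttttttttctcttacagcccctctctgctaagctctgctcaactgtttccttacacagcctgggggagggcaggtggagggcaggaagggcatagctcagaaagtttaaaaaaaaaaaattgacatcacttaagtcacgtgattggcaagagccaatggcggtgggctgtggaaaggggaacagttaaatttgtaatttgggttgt
Runx1 proximal: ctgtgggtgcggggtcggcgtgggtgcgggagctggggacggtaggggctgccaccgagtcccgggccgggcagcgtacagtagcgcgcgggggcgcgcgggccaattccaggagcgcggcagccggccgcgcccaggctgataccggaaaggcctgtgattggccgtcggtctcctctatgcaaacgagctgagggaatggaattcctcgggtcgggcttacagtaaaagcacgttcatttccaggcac
Ina: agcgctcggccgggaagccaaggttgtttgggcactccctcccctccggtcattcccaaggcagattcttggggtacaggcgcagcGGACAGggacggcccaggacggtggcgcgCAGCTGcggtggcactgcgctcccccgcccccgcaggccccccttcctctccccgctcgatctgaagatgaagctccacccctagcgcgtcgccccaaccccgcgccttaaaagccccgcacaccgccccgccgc
The search used both strands of 4 short motifs. They were the left and right cores of the RE1 element bound by the neuronal repressor REST (CAGCACC and GGACAG), an E-box of neurogenic bHLH factors (CAGCTG) and a GATA site (AGATAA), of which none overlapped another in the Ina window. The Ina window holds GGACAG and CAGCTG, and the windows printed for Slc17a6 and Runx1 hold none of the 4. Over the 33 member windows, CAGCTG occurred in 24.2%, against 13.0% of all 32817 windows of this length. The other shares were 21.2% against 18.7% for GGACAG, 3.03% against 5.73% for CAGCACC and 6.06% against 9.99% for AGATAA. Member windows were richer in G and C, with a median of 61.2% against 52.4% for all windows. The motif shares were not compared at like composition, and no enrichment was tested. The Runx1 windows differ in composition, with 45.6% G and C and 2 CG steps at the distal start, and 67.6% and 27 CG steps at the proximal start. The array values do not separate transcripts from these starts.

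Only 4 members had a pooled SD within genotype above 0.2, and in each of them Pjvk-/- replicate 1 was the highest of the 6 arrays. They were singled out after their values were seen. Syt1 read 8.48, 7.02 and 7.34 in the Pjvk-/- arrays, against 7.43, 7.46 and 7.58 in the Pjvk+/+ arrays. The first array lay above and the other two below all Pjvk+/+ arrays, and the difference of 0.12 became -0.31 (adjusted p = 0.388) without that array and 0.42 without Pjvk-/- replicate 2. Sncg, gamma-synuclein, read 10.12, 9.49 and 9.50 in the Pjvk-/- arrays and 9.56, 9.57 and 9.64 in the Pjvk+/+ arrays, with the same order and a difference of 0.11 that was -0.10 without the first array and 0.22 without the second.

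Gap43 showed the same array on top with more overlap, at 7.78, 7.17 and 7.42 in the Pjvk-/- arrays against 7.27, 7.38 and 7.04 in the Pjvk+/+ arrays. Pcdh9, a protocadherin, read 9.65, 9.07 and 9.45 in the Pjvk-/- arrays and 9.24, 9.22 and 9.15 in the Pjvk+/+ arrays. Without Pjvk-/- replicate 1, Gap43 differed by 0.07 and Pcdh9 by 0.06, in place of 0.23 and 0.19. Over the alternatives Gap43 ranged from 0.07 to 0.495 and Pcdh9 from 0.06 to 0.35, both highest where Pjvk-/- replicate 2 was left out or the Y-linked covariate was used. Of the 3 astrocyte genes among the brain glia markers, Gfap and Aqp4 were highest in this array and Aldoc was not. Gfap, the astrocyte filament protein, read 9.28 in it, 8.21 and 8.65 in the other Pjvk-/- arrays and between 8.26 and 8.51 in the Pjvk+/+ arrays. Aqp4, an astrocyte water channel that supporting cells also make, read 9.69, 8.84 and 9.55 in the Pjvk-/- arrays and 8.93, 8.91 and 8.72 in the Pjvk+/+ arrays. Aldoc, an aldolase, read 10.73, 10.58 and 10.93 in the Pjvk-/- arrays and 10.74, 10.78 and 10.90 in the Pjvk+/+ arrays. Over the 6 brain glia markers, 4 had a difference above 0, and their mean level was 9.19, 8.77 and 9.25 in the Pjvk-/- arrays and 8.87, 8.93 and 8.86 in the Pjvk+/+ arrays, highest in Pjvk-/- replicate 3. Their part in these neuronal values was not tested. In Pjvk-/- replicate 1, Nefl read 11.85, Nefm 11.47 and Nefh 12.02, each inside the range of the Pjvk+/+ arrays. For Nefl, this was the highest of the Pjvk-/- arrays.

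**Figure D4:**
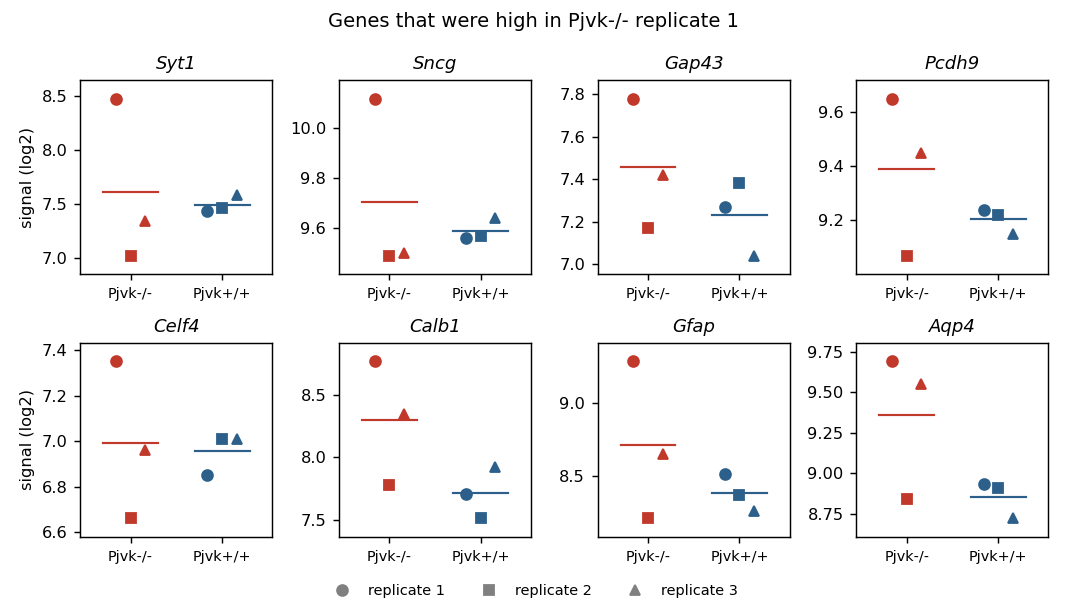
Log2 signal in each array for the 4 members with the widest spread, for Celf4 and Calb1 of the other neuronal lists and for Gfap and Aqp4 of the brain glia markers. Pjvk-/- replicate 1 (circle, left) is the highest array in all 8 panels. Replicate 3 of the same genotype also lies above every Pjvk+/+ array for Gap43, Pcdh9, Calb1, Gfap and Aqp4, but not for Syt1, Sncg or Celf4.

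Other neuronal genes gave no call in the main fit either. Of 59 such genes, 52 were measured and 0 passed the limma test over all genes, with 8 lower and 1 higher at an unadjusted p under 0.05, where 6.66% of all genes were lower and 5.74% higher. The median difference was -0.06, with 32 genes (61.5%) below 0, 19 above and 1 at 0, where 53.8% of all genes were below 0. Without overlap, 14 (26.9%) were lower and 0 higher, where 11.3% and 6.59% of all genes, and 21.5% and 2.15% of the brightest decile, were. The vesicle and release genes had 5 of 12 measured genes (41.7%) lower without overlap, against the same 11.3% of all genes and 21.5% of the brightest decile. Sv2c, a vesicle glycoprotein, had the smallest p of these lists: it read 9.50, 9.52 and 9.42 in the Pjvk-/- arrays and 9.87, 9.78 and 9.80 in the Pjvk+/+ arrays, a difference of -0.34 (SE 0.06, limma adjusted p = 0.138). All its Pjvk-/- values were lower. Syn2, which tethers vesicles, differed by -0.26, Syt4 by -0.17 and Rab3a, a vesicle GTPase, by -0.15, each without overlap and with an adjusted p from 0.215 to 0.353, and Rab3a was at -0.095 with the Y-linked covariate.

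No gene of the remaining neuronal lists passed the test in the main fit. Of 12 measured channels and receptors, Hcn2, a hyperpolarization-activated channel, differed by -0.25 and Scn8a, the sodium channel of nodes and initial segments, by -0.17, both without overlap (limma adjusted p = 0.246 and 0.317). The neurotrophin receptors Ntrk2 and Ntrk3, on which these neurons depend, differed by 0.02 and -0.04, and the Ntrk2 difference was -0.02 without Pjvk-/- replicate 1. Among 10 measured identity and subtype genes, Prox1 differed by -0.21 without overlap and Pcdh20 by -0.18 with overlap, or -0.04 with the Y-linked covariate. Calb1, the calcium buffer calbindin, read 8.77, 7.78 and 8.35 in the Pjvk-/- arrays and 7.71, 7.51 and 7.92 in the Pjvk+/+ arrays, with Pjvk-/- replicate 1 again the highest. Its difference was 0.59 (limma adjusted p = 0.353) with that array and 0.35 (adjusted p = 0.503) without it. Without Pjvk-/- replicate 2, the lowest Pjvk-/- array, the Calb1 difference was 0.85 (adjusted p = 0.2). How much of the Prox1 and Calb1 signals came from neurons was not tested. The 18 cytoskeleton, transport and adhesion genes had 6 (33.3%) lower without overlap, where 11.3% of all genes and 21.5% of the brightest decile were. Of these 18 genes, 0 had an unadjusted limma p under 0.05, where 6.66% of all genes were lower and 5.74% higher. Their smallest adjusted p was 0.427, for the kinesin gene Kif5c at -0.11, which was -0.07 with cyclic loess or the Y-linked covariate.

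Marker lists of other cells in the dissection had medians above 0. Schwann and satellite glia markers had a median difference of 0.02 over 9 measured genes, and their mean level was 10.11, 10.03 and 10.13 in the Pjvk-/- arrays and 10.08, 10.02 and 10.13 in the Pjvk+/+ arrays. Hair cell markers had a median of 0.06 and supporting cell markers of 0.07, over 12 genes each, and skeletal muscle markers of 0.17 over 10 genes. The members' own mean level was 9.83, 9.73 and 9.76 in the Pjvk-/- arrays and 9.83, 9.80 and 9.82 in the Pjvk+/+ arrays, with Pjvk-/- replicate 1 equal to the highest Pjvk+/+ array. Differences between the lists were not tested.

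**Figure D5:**
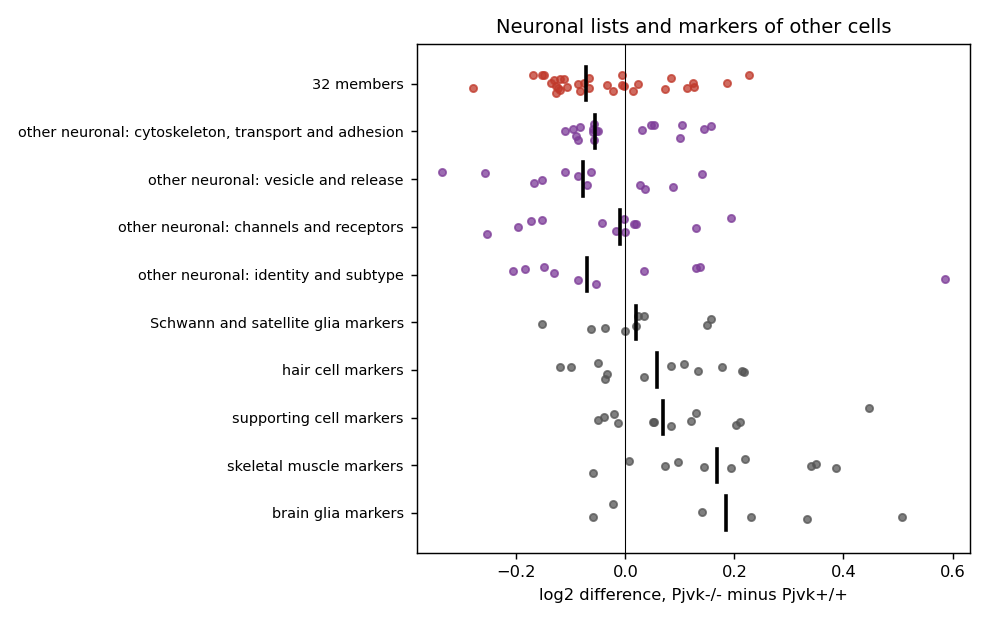
Log2 difference (Pjvk-/- minus Pjvk+/+) of each measured gene in the 32-member list, the 4 other neuronal lists and the marker lists of other cells, with list medians as black bars. Neuronal medians lie between -0.08 and -0.01, and those of the other cells between 0.02 and 0.19. The lists differ in mean signal and were not matched for it.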

How the data were processed

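Per the labels' protocols, total RNA was extracted with TRIzol, cleaned on RNeasy columns and 100 ng was labelled with biotin as cDNA for Affymetrix Mouse ST arrays. Expression Console is the only software in the submitters' processing notes, and how probes were summarized or normalized is not stated there. The authors deposited log2 values of 35557 probe sets in 6 columns, which were used without further normalization. The platform annotation, which is dated, gave 21789 probe sets 1 symbol. Another 1621 carried several symbols and 12147 were not listed, and neither kind was used. Symbols were updated through a RefSeq gene table (GRCm38.p6, 21698 probe sets matched), and the probe set with the highest mean was kept for each of 19938 genes. Y-linked and other list genes without a single-symbol probe set were not analysed here.

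The test was limma's moderated, two-sided one (version 3.58.1, R 4.3.3), with Benjamini-Hochberg adjustment across all genes and a threshold of 0.05 on the adjusted p. Residual degrees of freedom were 4 and prior ones 4.59. Precision is limited by the number of arrays. The steps were tested on simulated data in which every planted change was larger than any member's difference. The simulation therefore does not show whether differences of the members' size could be called. The members and lists were chosen with earlier results of these data known, so they are described by counts and medians, with no set test. Values in every array are given for the 12 members with the smallest p, for members whose probe sets differ in direction and for the brightest of each role, and from other lists at most 4 genes with the smallest p are named. Exceptions named after their values were seen are Rbfox3, Ntrk2, Ntrk3, Celf4, Gfap, Aldoc, Cnp, Ibsp, the other genes high in 1 array and the 4 widely spread members. Alternatives were filters on dim genes, other normalizations, other probe set rules, an intensity trend with robust priors, a replicate block, a Y-linked covariate and leaving out each array.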

Additional observations from a re-analysis of the deposited data

How the results depend on the processing

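In all 16 alternatives run, 0 members were called. The count over all genes, 7 at first, was 20 and 45 with genes at or above the 25th percentile and the median signal, 18 with arrays centred on their medians, 112 with an intensity trend and robust priors (100 lower, 12 higher, no member), 1 with the replicate number as a block and 0 with the Y-linked covariate, and ranged from 2 to 6 with 1 array left out. Same-numbered arrays did not deviate together (correlations 0.076, 0.019 and -0.009), so the numbers are not taken as pairs. The block changed no member's call. The members' median, -0.07, was -0.037 with quantile normalization, -0.039 with cyclic loess and -0.037 with the Y-linked covariate, and ranged from -0.104 to -0.051 with 1 array left out. Members lower without overlap numbered 6 with quantile normalization or cyclic loess, and from 10 to 13 with 1 array left out. Fewer arrays make non-overlap easier to reach, so the counts with 1 array left out cannot be read as a stronger separation. The share of all genes was not counted in these settings, so neither the lower nor the higher counts can be read as a result about the members. Isl1 changed sign to 0.016 (quantile), 0.017 (cyclic loess) and 0.168 (Y-linked covariate), and ranged from -0.12 to 0.035 with 1 array left out. With 1 array left out, Syt1 ranged from -0.31 to 0.42 and Sncg from -0.095 to 0.22, both negative only without Pjvk-/- replicate 1. The cause of these shifts was not tested.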

Other observations

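The genes that stood highest in Pjvk-/- replicate 1 included further genes of neurons. Tac1, the precursor of substance P, read 6.87 in that array, 4.52 and 4.95 in the other Pjvk-/- arrays and between 4.77 and 4.90 in the Pjvk+/+ arrays. Kcnc2, a fast potassium channel, read 7.84, 6.66 and 6.18 in the Pjvk-/- arrays and 6.95, 6.72 and 7.04 in the Pjvk+/+ arrays. Kcnq5, another potassium channel, read 7.48, 6.54 and 6.20 in the Pjvk-/- arrays and 6.77, 6.78 and 6.63 in the Pjvk+/+ arrays. Slc6a11, a GABA transporter of astrocytes, read 7.71 in that array and at most 7.09 in the others. P2rx3, an ATP-gated channel of sensory neurons, read 6.56 there and at most 6.10 elsewhere. The same array was also highest for genes of other tissues, such as the bone gene Ibsp at 10.89 against at most 10.31. In all, 144 genes exceeded the other 5 arrays by at least 0.25 in this array, against between 27 and 89 in each other array. Of the 144, 3 were members of the list, Syt1, Sncg and Gap43. Other arrays stood apart downward at this margin: Pjvk+/+ replicate 1 lay below the other 5 in 185 genes, against 51 for Pjvk-/- replicate 1. The genes named here were chosen after their values were seen, and no test was made.

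Pjvk-/- replicate 3 was the highest array for Mog and Mobp, genes of oligodendrocyte myelin, but not for Cnp, another such gene. Mog read 8.77, 8.39 and 9.26 in the Pjvk-/- arrays and 8.59, 8.61 and 8.53 in the Pjvk+/+ arrays. Mobp read 8.89, 8.79 and 9.48 in the Pjvk-/- arrays and 8.86, 8.77 and 8.80 in the Pjvk+/+ arrays. Cnp read 11.34, 11.58 and 11.52 in the Pjvk-/- arrays and 11.50, 11.50 and 11.51 in the Pjvk+/+ arrays.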
